A study of Homo sapiens with 10 samples.

Results

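Ribosome density after 2 h of nutlin-3a was compared with that of untreated cells, gene by gene, and set against the RNA change of the same transcripts, to find which genes gained or lost ribosomes beyond their change in mRNA. The genes were those with at least 5 FPKM (fragments per kilobase of transcript, scaled to the mapped reads of the library) in at least 1 library of RNA-Seq and at least 1 library of Ribo-Seq, which left 7015 of the 11258 transcripts listed for both assays. The cells were BJ fibroblasts, a human line immortalized by expression of hTERT (the catalytic subunit of telomerase) and grown in medium with serum. They were either left untreated (control) or given nutlin-3a, a small molecule that keeps MDM2 from binding p53. The series holds 10 libraries, 1 per assay for the control and for 2, 4, 6 and 19 h of nutlin-3a, and 4 of them, the control and 2 h libraries of both assays, make up this comparison. Each group is 1 library from 1 cell line, so no spread between replicates could be measured, no p-value is given, and errors are counting errors only.

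RNA-Seq measures how much of an mRNA a cell holds, and Ribo-Seq sequences the mRNA fragments that ribosomes protect, so that the density of these fragments reports how many ribosomes sit on the message. Their ratio is the translational efficiency (TE). An mRNA made by new transcription usually gains ribosomes in step with its amount, whereas a change in TE reflects ribosomes gained or lost per message. p53 is a transcription factor whose early targets include CDKN1A and MDM2, and the transcripts best known for regulated TE are the 5′-terminal oligopyrimidine (TOP) mRNAs of ribosomal proteins and translation factors, which respond to mTOR. Fibroblasts devote a large part of their protein output to collagens and other matrix proteins, which are made on the endoplasmic reticulum and secreted.

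The Ribo-Seq libraries of the control and of 2 h held 11763298 and 11858500 reads, and the RNA-Seq libraries 23845559 and 26948206. The median tested gene had 509 and 528 Ribo-Seq reads and 1352 and 1509 RNA-Seq reads. One transcript, ZNF354B, held 13.2% of the control Ribo-Seq reads and 4.53% at 2 h although its RNA was at 1.74 and 1.64 FPKM, and it was not among the tested genes. The 95% Wilson intervals of this and the other shares of reads given here reach at most 0.019 percentage points to either side and, like all errors here, cover counting only. With each library rescaled without it and LGALS1 (called the rescaling here), every density change at 2 h was lower by a constant 0.14 on the log2 scale, so lists are also given relative to the median of all genes. Of 14 fibroblast markers 13 reached 5 FPKM in RNA, led by VIM. All 9 epithelial and all 8 endothelial markers were below 1 FPKM or not listed, and of 9 leukocyte markers only CD68, which fibroblasts also express, reached 5 FPKM. In bulk samples fewer cells of a type and less RNA per cell cannot be told apart. The study treated sequencing runs as batches, its methods describe nutlin-3a treatment for 6 and 19 h only, and the labels name no run, so that 2 h of treatment and anything particular to its libraries cannot be told apart.

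RNA changed little at 2 h, and density changed more. The SD of the log2 change across the 7015 genes was 0.24 for RNA, 0.40 for density and 0.33 for TE, where the median counting errors were 0.054, 0.090 and 0.11. The median changes were -0.045, 0.016 and 0.045. Density was at least 2-fold higher for 149 genes (2.12% of those tested) and at least 2-fold lower for 9 genes (0.128%), while RNA was at least 2-fold higher for 65 genes (0.927%) and at least 2-fold lower for PPP1R3C alone. Of the 149 genes with higher density, 52 also had at least 2-fold more RNA. Another 71 had flat RNA, which here means between 20% lower and 25% higher than the control, and the remaining 26 lay between. With the 4 h libraries as baseline in place of the control, 39 genes had at least 2-fold more density with flat RNA.

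The 52 and the 71 genes held members of different lists. Those whose RNA rose with density included 18 of the 42 tested immediate-early genes, the first genes switched on by growth factors and stress, and 6 of the 42 tested p53 targets, but no gene on the lists of collagens, large matrix glycoproteins and giant cytoskeletal proteins. Those with flat RNA included 40 of the 63 tested genes of these 3 lists and no immediate-early gene or p53 target. Both classes are small parts of the 7015 tested genes, so the absence of a list from either says little. Genes whose RNA rose are also kept out of the flat class by its definition. Transcripts of the 71 had a median length of 7233 nt, against 2472 nt for the 52 and 2603 nt for all tested genes. No gene moved at least 2-fold in opposite directions in both assays.

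**Figure D1:**
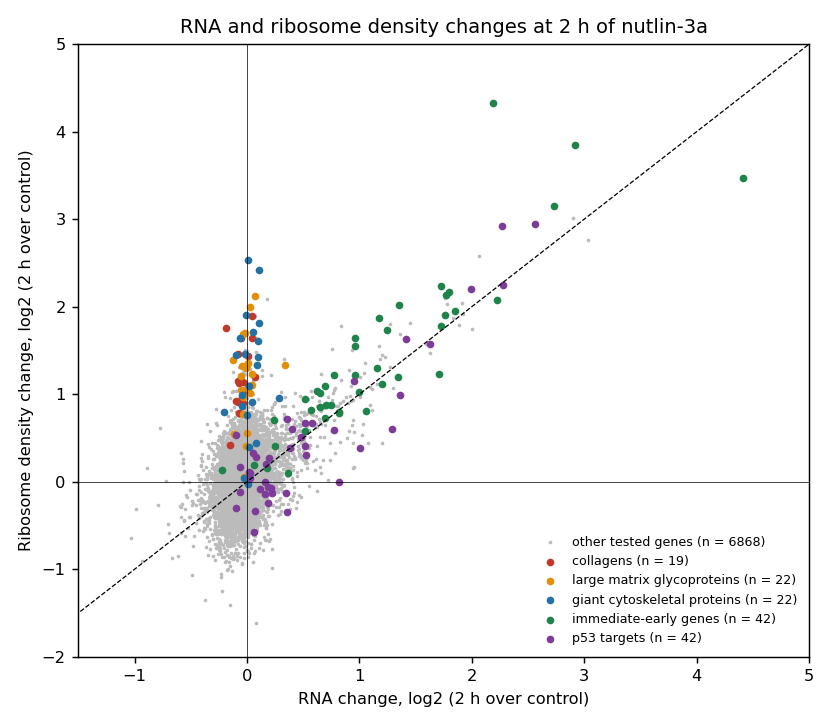
Log2 change of RNA (horizontal axis) and of ribosome density (vertical axis) between the 2 h and control libraries, 1 point per tested gene; on the dashed line both changes are equal and TE does not change. Collagens, large matrix glycoproteins and giant cytoskeletal proteins rise along the vertical axis near an RNA change of 0, while immediate-early genes lie along the dashed line up to an RNA change of 4.41 for EGR3.

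TE changes were called against genes of like abundance: a gene was called when its change lay more than 7/4 SDs from the median, both taken over that gene and the 500 genes nearest to it in mean log2 Ribo-Seq level. This called 305 genes higher (4.35% of those tested) and 180 lower (2.57%), and 280 of the higher and 154 of the lower genes had flat RNA. TE was at least 2-fold higher for 80 genes (1.14%), of which 43 were on the 3 lists of collagens, large matrix glycoproteins and giant cytoskeletal proteins. These lists were drawn up with earlier results of these data known. TE was at least 2-fold lower for ARIH1, TMSL4, ZFHX3 and WDR74. Genes were named by size or rank within their list, and those that follow only because they made up a small count, such as the uncalled or called members of a list, were chosen after their values were seen.

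Collagens form the fibres and sheets of the extracellular matrix, and all 19 tested collagen genes had a TE change above the median of all genes. Their median changes were -0.044 in RNA, 1.12 in density and 1.13 in TE. Called higher in TE were 18 of the 19 (94.7%, beside 4.35% of all tested genes). COL7A1 (ENSG00000114270), the collagen of anchoring fibrils in skin, had the highest TE change of the list. Its Ribo-Seq level was 5.97 FPKM in the control and 20.3 at 2 h, beside 30.3 and 26.6 FPKM in RNA-Seq, a TE change of 1.95 with a counting SE of 0.069. COL6A3 (ENSG00000163359), the largest chain of the microfibrillar collagen VI, went from 183 to 678 FPKM in Ribo-Seq. Its RNA was 680.1 and 700.1 FPKM, and TE changed by 1.85 (counting SE 0.012). The Ribo-Seq values of COL6A3 rest on 23179 reads in the control and 86448 at 2 h, in libraries of nearly the same total.

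The basement membrane chain COL4A2 rose from 62.9 to 196 FPKM in Ribo-Seq at an RNA level of 154 and 148 FPKM, a TE change of 1.69. COL1A2, a chain of the main fibrillar collagen of skin and the list member with the highest control Ribo-Seq level, rose from 1341 to 2544 FPKM with RNA at 1807 and 1691 FPKM. Its TE change was 1.02 with a counting SE of 0.007. The lowest change was that of COL3A1, which makes the fibrils that accompany collagen I, with Ribo-Seq at 90.01 and 119.9 FPKM and a TE change of 0.57, the only one on the list that was not called. Collagen genes took 2.13% of all control Ribo-Seq reads and 4.52% at 2 h.

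Large glycoproteins that link the matrix to cells and to growth factors moved alike. All 22 tested members lay above the median of all genes in TE, with a list median of 1.14 beside -0.0091 in RNA. Of these, 19 were called higher (86.4%, beside 4.35% of all tested genes). TNC (ENSG00000041982), the adhesion-modulating tenascin C, was highest, with 41.3 FPKM in the control and 179 at 2 h in Ribo-Seq and 285 and 299 in RNA-Seq, a TE change of 2.05 (counting SE 0.028). HSPG2, the basement membrane proteoglycan perlecan, went from 10.6 to 42.2 FPKM in Ribo-Seq and changed by 1.97 in TE. FN1 (ENSG00000115414), fibronectin, rose from 147 to 476 FPKM in Ribo-Seq with RNA at 1249 and 1218 FPKM, a TE change of 1.73 with a counting SE of 0.014.

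FBN1, fibrillin 1 of elastic microfibrils, rose from 21.4 to 69.4 FPKM in Ribo-Seq and changed by 1.71 in TE. THBS1, thrombospondin 1, had the highest control Ribo-Seq level of the list. Its RNA was 1003 and 1266 FPKM and its Ribo-Seq level 601 and 1515 FPKM, so that an RNA change of 0.34 came with a TE change of 0.998. Members that were not called were LTBP3 (0.56), FBLN1 (0.42) and FBLN5, an elastic fibre protein that was lowest with 0.08. These glycoproteins took 0.989% of control Ribo-Seq reads and 2.49% at 2 h.

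The change was not limited to secreted proteins. Giant proteins of the cytoskeleton and its membrane links had a median TE change of 1.16 over 22 tested genes, with 0.013 in RNA. Among them, 18 were called higher (81.8%, beside 4.35% of all tested genes). NES (ENSG00000132688), the intermediate filament protein nestin, had the largest TE rise of all genes that met the conditions for naming. Its Ribo-Seq level was 21.5 FPKM in the control and 125 at 2 h, from 1406 and 8223 reads, and its RNA was 138 and 139 FPKM, so that TE changed by 2.53 with a counting SE of 0.044. PLEC (ENSG00000178209), plectin, which ties filament systems together, followed with 14.6 and 78.2 FPKM in Ribo-Seq and 167 and 179.6 in RNA-Seq, a TE change of 2.31. AHNAK, a very large scaffold protein, went from 25.5 to 95.7 FPKM in Ribo-Seq, a TE change of 1.91. Reads could not be recovered for AHNAK, so it has no counting error.

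The actin cross-linker FLNC changed by 1.70 in TE, from 28.4 to 99.8 FPKM in Ribo-Seq. Its relative FLNA, with the highest control Ribo-Seq level of the list, changed by 1.24, from 149 to 376 FPKM. SPTAN1, an αII-spectrin of the membrane skeleton, changed by 1.70. Not every member was called. MAP4, a microtubule-binding protein with a transcript of 8920 nt, was at 60.3 and 59.2 FPKM in Ribo-Seq with a TE change of -0.04. The other members that were not called were MYOF, TLN2 and MAP1B, with changes of 0.38, 0.36 and 0.06.

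Of the 15 largest TE rises, 3 were on none of these lists. LRP1, a large endocytic receptor, went from 30.4 to 113 FPKM in Ribo-Seq with RNA at 116 and 122 FPKM, a TE change of 1.82 (counting SE 0.024). C14orf49, which encodes a nesprin of the nuclear envelope, went from 3.71 to 15.8 FPKM and changed by 1.91 (counting SE 0.15). The third, NR4A1, is an immediate-early gene and is described with that list.

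**Figure D2:**
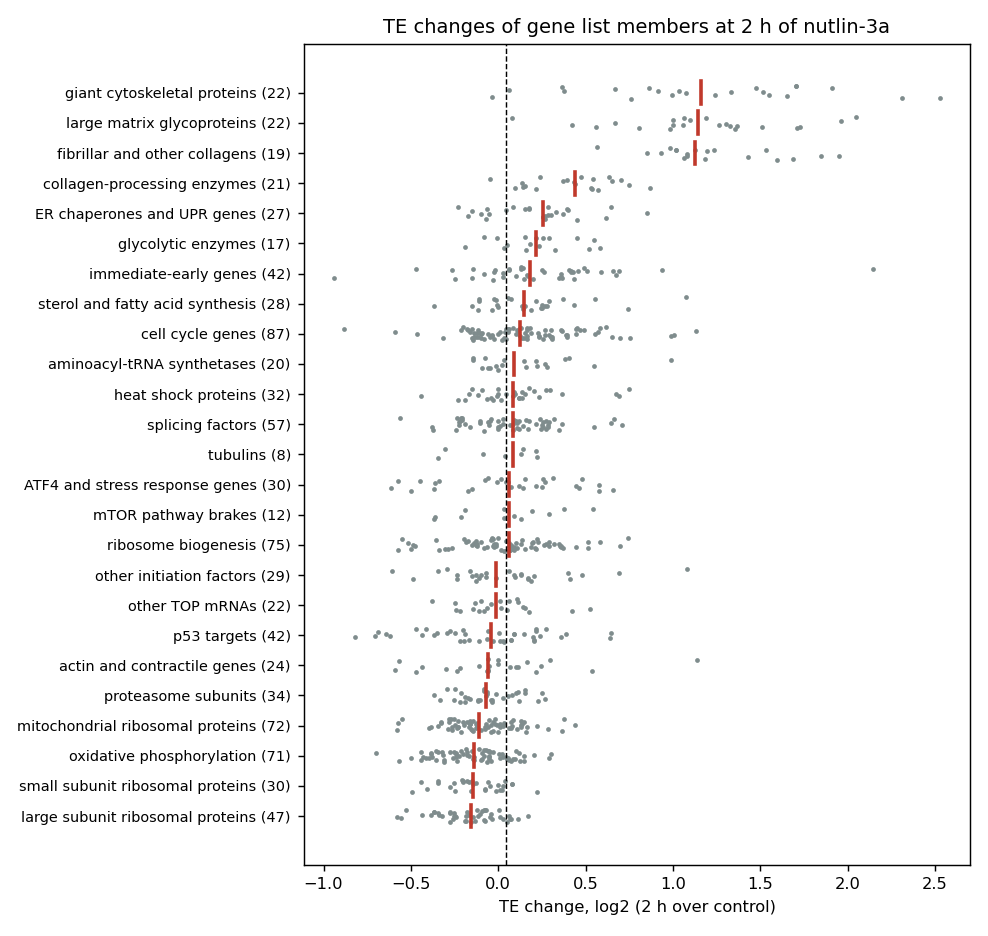
Log2 TE change between 2 h and control for each tested member (grey points) of 25 gene lists with at least 5 tested members, number tested in brackets, with the list's median (red bar) and the median of all tested genes (dashed line, 0.045). The medians of giant cytoskeletal proteins, large matrix glycoproteins and collagens lie above 1, and those of ribosomal proteins of both subunits lie at about -0.15.

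TE change rose with transcript length across all genes, by 0.11 on the log2 scale for each doubling of length. The density change rose by 0.15 per doubling and the RNA change by 0.047. The 498 genes with transcripts under 1000 nt had a median TE change of -0.11, and 1.20% were called higher and 7.63% lower. Between 2000 and 3000 nt the median was 0.059 (n = 1825). For 755 genes of 5000 to 8000 nt it was 0.14, with 10.7% called higher, and for 175 genes of at least 8000 nt it was 0.34, with 26.3% called higher.

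Matrix and giant cytoskeletal genes stood above other genes of like length. The lists were chosen with earlier results of these data known, so these values describe the lists and are no test of them. Among transcripts of at least 5000 nt, the 51 that were on the 3 lists had a median TE change of 1.19 and 46 were called higher, while the 879 others had a median of 0.15 and 81 were called higher. Between 3000 and 5000 nt, 7 list members had a median of 1.06 and 1904 other genes one of 0.072. With the linear trend over length removed, the list medians were 0.99 for collagens, 1.01 for large matrix glycoproteins and 0.88 for giant cytoskeletal proteins, where all genes had a median of 0.035. The part that length or the 2 h libraries have in these differences was not tested further.

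**Figure D3:**
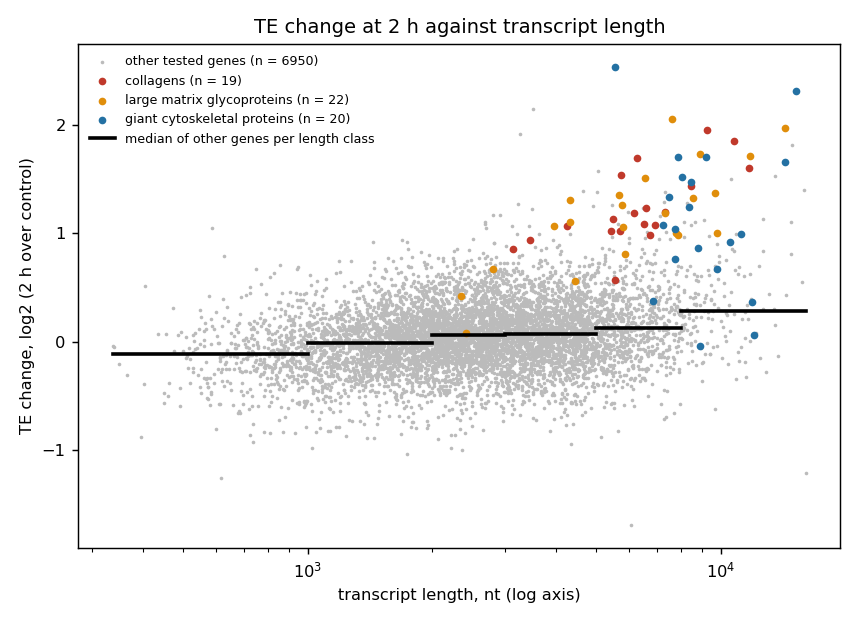
Log2 TE change between 2 h and control against transcript length (log axis, nt) for the 7011 tested genes with a recovered length, with members of 3 lists in colour; black bars give the median of all other genes in 6 length classes. The bars climb from -0.11 under 1000 nt to 0.29 from 8000 nt, and most coloured points lie above them.

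Enzymes and chaperones of the secretory route moved the same way by less. Of 21 tested collagen-processing enzymes, which hydroxylate, fold and cross-link collagen, 20 lay above the median of all genes in TE. The list median was 0.44, and 5 were called higher (23.8%, beside 4.35% of all tested genes). LOXL2, a cross-linking lysyl oxidase, was highest, from 235 to 438 FPKM in Ribo-Seq at 329.7 and 336 FPKM of RNA, a TE change of 0.87. PPIB, a prolyl isomerase and the most abundant member in control Ribo-Seq, was at 773 and 789 FPKM with a TE change of 0.10, and FKBP14 was lowest with -0.05. For 27 chaperones and unfolded-protein-response genes of the endoplasmic reticulum the median was 0.26. Of these, 3 (11.1%) were called higher, namely UGGT1 (0.85), HYOU1 (0.64) and HSPA5 (0.61). CALR, a calcium-binding lectin chaperone, was at 1401 and 1651 FPKM in Ribo-Seq with a TE change of 0.27.

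The other libraries place these values in time. At 4 h, Ribo-Seq levels of the genes with the largest TE rises lay closer to the control than to 2 h. FN1 was at 147 FPKM in the control and at 476, 220.1, 696 and 781 FPKM at 2, 4, 6 and 19 h. COL6A3 was at 183 FPKM in the control and then at 678, 260.4, 869 and 1046 FPKM. For NES the 5 values were 21.5, 125, 35.1, 88.4 and 97.5 FPKM, so that 2 h was its highest library. Each of these 3 genes was low in the control and 4 h libraries and high in the other 3.

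The lists showed the same pattern. Relative to all genes, the median TE level of collagens was -0.94 in the control and 0.37, -0.67, 0.65 and 0.69 at 2, 4, 6 and 19 h. For large matrix glycoproteins it was -1.01 in the control and -0.0007, -0.98, 0.41 and 0.17 at the 4 times. Giant cytoskeletal proteins had -2.24, -1.03, -1.80, -0.83 and -0.65 in the same order. The 2 h value was therefore high against both of its neighbours in time, and against the 4 h libraries the median TE changes of the 3 lists at 2 h were 0.98, 0.92 and 0.79. All times share the control libraries, so these values are given side by side and were not compared by a test.

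**Figure D4:**
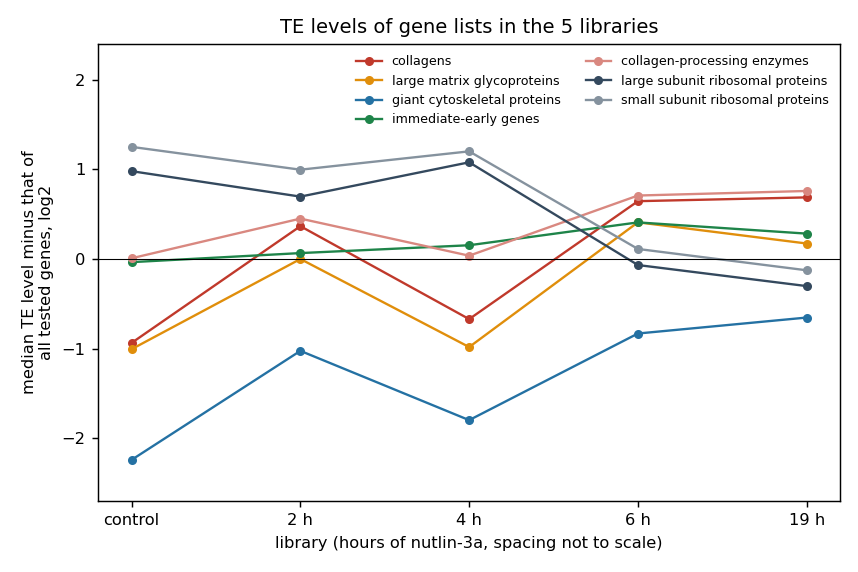
Median log2 TE level of 7 gene lists minus that of all tested genes (vertical axis) in the control and 4 nutlin-3a libraries (horizontal axis), 1 library pair per point. Collagens, large matrix glycoproteins and giant cytoskeletal proteins are low in the control and at 4 h and higher at 2, 6 and 19 h, while ribosomal proteins are above 0 up to 4 h and fall to -0.30 and -0.13 at 19 h.

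Most immediate-early genes gained RNA and ribosomes together. Their median change was 0.96 in RNA, 1.16 in density and 0.18 in TE over 42 tested genes. Of the 42, 26 had at least 2-fold more density, beside 2.12% of all tested genes. The largest RNA rises of all genes were those of EGR3, BHLHE40, DUSP2, HES1 and JUNB. JUNB (ENSG00000171223), a subunit of the AP-1 transcription factor, went from 22.9 to 151 FPKM in RNA-Seq and from 28.4 to 251 in Ribo-Seq, a TE change of 0.42 with a counting SE of 0.079. HES1, a repressor downstream of Notch, went from 6.22 to 46.4 FPKM in RNA-Seq and from 9.97 to 80.2 in Ribo-Seq, with a TE change of 0.11. For BHLHE40, a circadian repressor, RNA rose from 6.24 to 51.1 FPKM and Ribo-Seq from 4.04 to 27.4, a TE change of -0.27.

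TE was called higher for 5 immediate-early genes, NR4A1, DUSP2, CTGF, CYR61 and EGR1, and lower for EGR3. These were 11.9% and 2.38% of the list, beside 4.35% and 2.57% of all tested genes. NR4A1 (ENSG00000123358), an orphan nuclear receptor, went from 5.14 to 23.4 FPKM in RNA-Seq and from 0.92 to 20.1 in Ribo-Seq. Its control Ribo-Seq value, 38 reads, was set to the floor of 1 FPKM, and the resulting TE change was 2.15 with a counting SE of 0.25, while a floor of 5 FPKM gave -0.18. DUSP2, a nuclear phosphatase, changed by 0.94 against the control and by -0.37 against the 4 h libraries. EGR3, a zinc-finger transcription factor, went from 1.28 to 27.2 FPKM in RNA-Seq and from 0.471 to 11.1 in Ribo-Seq, 24 and 571 reads. Its TE change of -0.94 was set by the floor, and without the floor it was 0.15. For the 2 matrix-associated growth regulators CTGF and CYR61 the TE changes were 0.69 and 0.68, beside RNA changes of 1.18 and 0.96.

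The p53 targets had a smaller median RNA change than the immediate-early genes. Over 42 tested genes the median change was 0.35 in RNA, 0.30 in density and -0.043 in TE. At least 2-fold more RNA was seen for 9 and at least 2-fold more density for 7, beside 0.927% and 2.12% of all tested genes. CDKN1A (ENSG00000124762), which encodes the cell-cycle inhibitor p21, went from 68.6 to 212 FPKM in RNA-Seq and from 164 to 488 in Ribo-Seq. Both rose about equally, with a TE change of -0.06 (counting SE 0.052). SESN2, a stress-induced inhibitor of mTOR signaling, went from 4.53 to 18 FPKM in RNA-Seq and from 2.9 to 13.4 in Ribo-Seq, with a TE change of 0.21, and of -0.43 with a floor of 5 FPKM. GDF15, a secreted stress cytokine, was at 0.245 FPKM of RNA in the control, under the floor, and its TE change of 0.65 had a counting SE of 0.64 and was -1.38 without the floor.

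Density rose less than RNA, or fell, for some p53 targets. TE was called lower for TP53INP1, SESN1, MDM2, RPS27L and PPM1D, and higher for PLK2 (0.64). These were 11.9% and 2.38% of the list, beside 2.57% and 4.35% of all tested genes. MDM2 (ENSG00000135679), the ubiquitin ligase that restrains p53, went from 14.9 to 36.3 FPKM in RNA-Seq but from 5.45 to 8.25 in Ribo-Seq, and TE changed by -0.69 (counting SE 0.091). At 4 h its RNA was at 203 and its Ribo-Seq level at 59 FPKM. SESN1 went from 3.38 to 4.33 FPKM in RNA-Seq and from 2.21 to 1.73 in Ribo-Seq, a TE change of -0.70 (counting SE 0.25). All 4 values lay under 5 FPKM, and a floor of 5 FPKM gave a TE change of 0. RPS27L, a ribosomal protein paralog induced by p53, had flat RNA at 85.8 and 89.6 FPKM and fell from 178 to 119 in Ribo-Seq, a TE change of -0.64. The TE change of TP53INP1, -0.82, was set by the floor, since both of its Ribo-Seq values were under 1 FPKM, and without the floor it was -0.066 and with one of 5 FPKM 0.

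Over all genes with at least 2-fold more RNA, 13 of 65 had less than 2-fold more density. They included MDM2 and PPM1D, and 5 of the 13 were called lower in TE. The other 3 called genes were SKIL (-0.76), SNAI2 (-0.63) and TIPARP (-0.65). SKIL and SNAI2 encode transcription regulators of the TGF-β response and of mesenchymal cells.

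**Figure D5:**
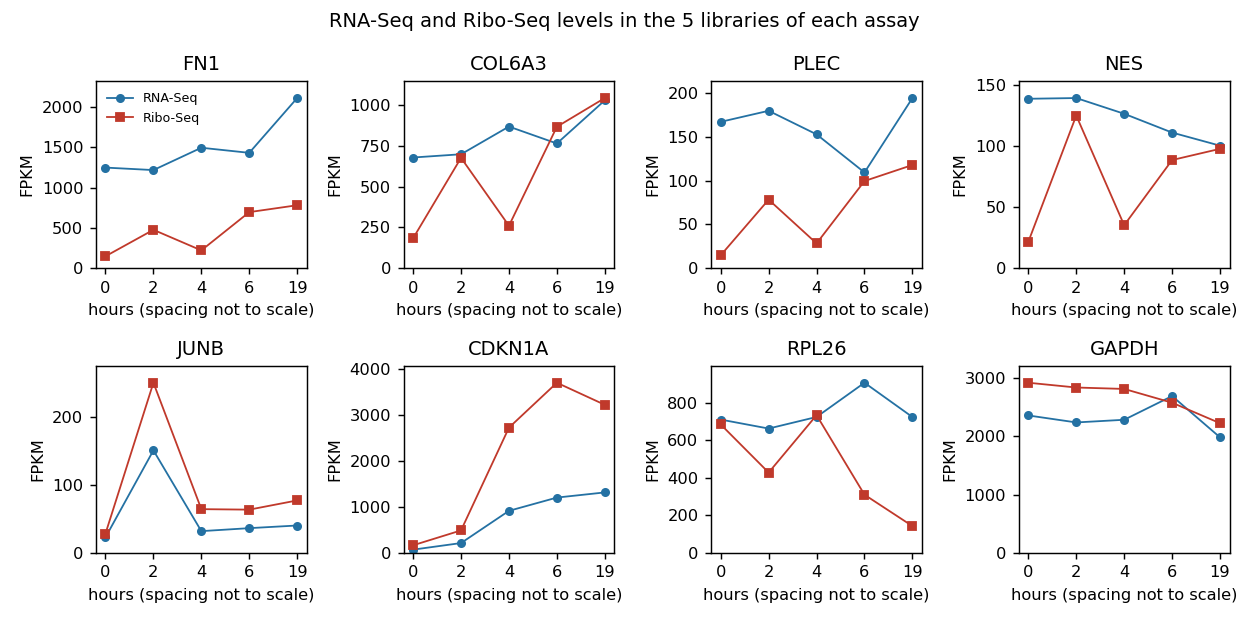
FPKM of RNA-Seq (circles) and Ribo-Seq (squares) in the control (0) and the 2, 4, 6 and 19 h libraries for 8 genes, 1 library per point, each panel with its own vertical axis from 0. FN1, COL6A3, PLEC and NES rise in Ribo-Seq at 2 h and fall back at 4 h. Their RNA changes little between control and 2 h. JUNB peaks at 2 h in both assays. In Ribo-Seq RPL26 is lower at 2 h than in the control and at 4 h, and lower still at 6 and 19 h.

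Ribosomal proteins were examined because their TOP mRNAs are the best-known targets of translational repression. At 2 h their TE was slightly lower. The median over 47 genes of the large subunit was -0.15 and over 30 of the small subunit -0.15, with RNA medians of -0.13 and -0.13. Below the median of all genes were 41 of the 47 and 27 of the 30. Only RPL26 and RPL21 (-0.56) were called lower, 2 of 77 genes beside 2.57% of all genes. RPL26 went from 685 to 428 FPKM in Ribo-Seq with RNA at 711 and 663 FPKM, a TE change of -0.58 with a counting SE of 0.040. The TE changes of RPL34, RPS23 and RPL23, none of them called, were -0.44, -0.41 and 0.07. These transcripts were short, with median lengths of 916 and 864 nt, and with the length trend removed the list medians were -0.06 and 0.015.

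The first 20 bases of some of these mRNAs, as annotated in RefSeq (GRCh38.p14), are shown because the TOP motif is read there. Capitals mark an uninterrupted run of pyrimidines that opens with C and has at least 4 further C or T, and the members are those with the lowest and highest TE change of each subunit, RPL34 and RPS23, the elongation factor EEF1A1 and, for contrast, GAPDH.
RPL26, chr17:8383174-8383193, minus strand: CTCTTCCCTTTTgcggccat
RPL34, chr4:108620576-108620595, plus strand: CCTCTTCCggggacgttgtc
RPL3, chr22:39319604-39319623, minus strand: ctctaccggcgggatttgat
RPS24, chr10:78033863-78033882, plus strand: CTCTTTTCCTCCTTggctgt
RPS23, chr5:82278335-82278354, minus strand: CTCTTTCgctcaggcccgtg
RPS9, chr19:54200858-54200877, plus strand: CTCTTTCTCagtgaccgggt
EEF1A1, chr6:73521013-73521032, minus strand: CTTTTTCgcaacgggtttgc
GAPDH, chr12:6535264-6535283, plus strand: gtccggatgctgcgcctgcg
RPL3, whose run ends after 4 pyrimidines, and RPS9, which has a long one, had the highest TE changes of their subunits, 0.17 and 0.22.

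A tract of this kind opened 1429 of all 35116 annotated starts (4.07%) and 506 of the 5811 tested genes with a RefSeq start (8.71%). Among the latter were 46 of 62 ribosomal protein genes and 14 of 16 other TOP mRNAs. Median TE changes of ribosomal protein genes were -0.15 with the tract and -0.11 without it (n = 46 and 16). With the length trend removed the order was the reverse, with medians of -0.0032 and -0.062. Among tested genes on neither list, 446 with the tract and 5287 without it had medians of 0.046 and 0.046. Translation factors and other non-ribosomal TOP mRNAs as a whole had a median of -0.014 over 22 genes with none called. EEF1A1 was at 2011 and 1939 FPKM in Ribo-Seq, a TE change of 0.05. PABPC1, the poly(A)-binding protein, was the highest of them with 0.53, and the histone chaperone NAP1L1 the lowest with -0.38.

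The cap-binding complex held opposite changes. EIF4G1, its scaffold, went from 39.4 to 85.8 FPKM in Ribo-Seq with RNA at 160.0 and 165 FPKM, a TE change of 1.08 (counting SE 0.036). EIF4E, its cap-binding subunit, went from 152 to 97.5 FPKM with RNA at 63.1 and 61.9, a TE change of -0.61 (counting SE 0.079). The transcripts of EIF4G1 and EIF4E were 5653 and 898 nt long, and with the length trend removed their TE changes were 0.94 and -0.47. The helicase EIF4A1 had a TE change of -0.13 and was not called. Over the 29 initiation factors outside the TOP list the median was -0.013, with 2 called higher, EIF4G1 and EIF4G3 (0.69), and EIF4E called lower. These were 6.9% and 3.45% of the list, beside 4.35% and 2.57% of all tested genes.

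Mitochondrial and other small proteins lay slightly below all genes. The median TE change was -0.11 for 72 mitochondrial ribosomal proteins, -0.14 for 71 subunits of oxidative phosphorylation and -0.069 for 34 proteasome subunits. Of these, 3, 2 and 0 members were called lower (4.17%, 2.82% and 0%, beside 2.57% of all tested genes). None was called higher, beside 4.35% of all tested genes. COX7B, a subunit of cytochrome c oxidase, fell from 47.9 to 26.4 FPKM in Ribo-Seq, a TE change of -0.70 with a counting SE of 0.087. MRPL1 had -0.58, and PSMA4, a core proteasome subunit, had -0.37 and was not called. The highest members of the 3 lists, none of them called, were MRPS34 of the small mitochondrial subunit (0.44), SDHA of succinate dehydrogenase (0.30) and PSMD13 of the proteasome's regulatory particle (0.27). Once the length trend was removed these 3 medians were -0.0048, -0.023 and -0.0033.

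Of 87 tested cell-cycle genes 6 were called higher (6.9%) and 2 lower (2.3%), beside 4.35% and 2.57% of all tested genes. The 6 called higher had transcripts from 3628 nt (BUB1B) to 12678 nt (MKI67). The 2 called lower, CKS1B and RFC4, had transcripts of 759 and 1448 nt. The list's median TE change was 0.13 over 87 tested genes, and below 0 with the rescaling, beside an RNA median of -0.14. MKI67, the proliferation marker Ki-67, went from 8.35 to 17.1 FPKM in Ribo-Seq, a TE change of 1.13. RFC4, a subunit of the clamp loader of DNA replication, went from 20.6 to 10.2, a TE change of -0.88. CKS2, a small CDK-binding protein, had the highest control Ribo-Seq level of the list and a TE change of -0.18.

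Among lipid, sugar and stress genes single members stood out. FASN, fatty acid synthase, went from 21.9 to 50.6 FPKM in Ribo-Seq with RNA at 48.9 and 53.6 FPKM, a TE change of 1.08. The 28 sterol and fatty acid genes had a median of 0.15 with 3 called higher (10.7%, beside 4.35% of all tested genes). Glycolytic enzymes had a median of 0.21 over 17 genes with none called, and GAPDH was at 2920.3 and 2838 FPKM in Ribo-Seq with a TE change of 0.03 (counting SE 0.010). HK2, the inducible hexokinase, was highest of them with 0.58. ATF4 and stress response genes had a median of 0.064 over 30 genes, and below 0 with the rescaling. In each direction 2 of them were called (6.67%), beside 4.35% higher and 2.57% lower over all tested genes. SLC1A5, a glutamine transporter, changed by 0.66, and CEBPG, a bZIP partner of ATF4, by -0.61.

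Contractile and tubulin genes changed little as groups, with medians of -0.056 over 24 and 0.085 over 8 genes. ACTB, β-actin, was at 6449 and 7027 FPKM in Ribo-Seq with a TE change of 0.10. VCL, the focal adhesion protein vinculin, rose from 71.5 to 173 FPKM, a TE change of 1.14. TMSB10, a small actin-sequestering thymosin, fell from 4367 to 2654 FPKM with RNA at 2350.1 and 2153, a TE change of -0.59 with a counting SE of 0.019. Medians were 0.089 for 20 aminoacyl-tRNA synthetases, 0.088 for 32 heat shock proteins, 0.087 for 57 splicing factors, 0.061 for 75 ribosome biogenesis genes and 0.064 for 12 brakes of the mTOR pathway. The rescaling without ZNF354B and LGALS1 turned these 5 medians and that of tubulins negative. Within these 5 lists, the highest changes were those of VARS (0.99), HSPA1A (0.75), SNRNP70 (0.71, and -0.040 against the 4 h libraries), POLR1A (0.74) and TSC2 (0.54), and the lowest those of FARSB (-0.15), HSPE1 (-0.44), SNRPE (-0.56), WDR43 (-0.57) and PRKAA1 (-0.37). Replication-dependent histones had a median of -0.28, but only 3 of 66 were tested.

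The largest TE falls were smaller than the largest rises, and all but that of RFC4 were in genes on none of the lists. ARIH1 (ENSG00000166233), a ubiquitin ligase, fell from 302 to 98.8 FPKM in Ribo-Seq with RNA at 15.9 and 16.8 FPKM, and TE changed by -1.69 (counting SE 0.045). Ribo-Seq was at 269 FPKM at 4 h, 294 at 6 h and 277 at 19 h, so 2 h alone was low. WDR74, a factor of ribosome assembly, fell from 643 to 269.7 FPKM at 14.7 and 12.6 FPKM of RNA, a TE change of -1.03. Both had far more Ribo-Seq than RNA-Seq signal per length, with log2 TE levels of 4.24 and 5.45 in the control, the sixth and the third highest of all tested genes. ZFHX3, a transcription factor with a transcript of 16064 nt, fell from 12.4 to 6.22 FPKM, a TE change of -1.21, and was at 20.7 FPKM at 4 h.

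TMSL4 changed by -1.25, from 24.2 to 9.14 FPKM, and this value is uncertain because TMSL4 resembles other thymosin β4 genes with which it could share reads. ST3GAL5, the GM3 ganglioside synthase, changed by -0.996, from 6.83 to 3.99 FPKM. Further falls were those of CLDND1 (-0.97), the adaptor subunit AP3S2 (-0.93), MLLT3 (-0.90, and 0.67 against the 4 h libraries), LLPH (-0.87), YAF2 (-0.86), C19orf2 (-0.86) and CHCHD7 (-0.85), with counting SEs from 0.14 to 0.27. Genes called lower had a median length of 1767 nt and those called higher one of 4234 nt.

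RNA fell by more than density for several of the genes that lost RNA. TXNIP, a glucose-responsive arrestin, went from 7.29 to 3.69 FPKM in RNA-Seq and from 4.01 to 3.23 in Ribo-Seq, a TE change of 0.67 (counting SE 0.21). PPP1R3C, a glycogen-targeting subunit, had an RNA change of -1.03 and a TE change of 0.39. C1orf53 and ZNF133 had RNA changes of -0.89 and -0.79 and TE changes of 1.05 and 0.53. RGS2, an inhibitor of G-protein signaling, fell alike in both assays, with an RNA change of -0.93 and a TE change of 0.02. ADAMTS1, chosen after its values were seen, was the only gene to move at least 1.5-fold in opposite directions. This matrix protease went from 152 to 88.9 FPKM in RNA-Seq and from 90.6 to 138 in Ribo-Seq, a TE change of 1.39 with a counting SE of 0.032.

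The most abundant tested transcripts of the control Ribo-Seq library barely moved. LGALS1, galectin 1, was at 10961 and 10513 FPKM with a TE change of 0.01. S100A6, a calcium-binding protein, was at 6913 and 7079 FPKM with a TE change of 0.18.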

How the data were processed

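The authors deposited 1 table of RNA-Seq and 1 of Ribo-Seq values, both in FPKM, with 5 columns each, and every column was used. Per the study's methods, reads were aligned with Bowtie to 1 protein-coding transcript per gene and uniquely mapped reads were kept, which loses reads shared by paralogs. The submitters' processing notes name hg19. The methods describe Ribo-Seq levels from the coding sequence, but the spacing of the deposited FPKM values gave the same transcript length in both tables for 11242 of 11258 transcripts (99.86%). The same spacing gave whole reads and library totals, used for counting errors, shares of reads, the read filter on named genes and the rescaling. In the control Ribo-Seq library the recovered reads summed to 11598788 of 11763298. That total is close to the non-rRNA reads the study lists for its nutlin-3a control. The study places part of those reads outside the coding sequence. The deposited values therefore appear to count such reads, so that density and TE here would cover the whole transcript.

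A floor of 1 FPKM was set under all values before the 2 h library was divided by the control on the log2 scale. The TE change is the density change minus the RNA change. Calls used 7/4 local SDs over a gene and its 500 neighbours in level. The counting error is the square root of the summed inverse read numbers, divided by the natural log of 2. With 1 library per group no test was run. Genes were named by rule: the 15 largest TE rises and falls among called genes with at least 40 reads in 1 library of each assay and a change over 3 counting errors, the 5 largest RNA changes each way, those of the 5 most abundant control Ribo-Seq transcripts that were tested, for each list the members with the highest and lowest TE change and the highest control level, and 8 genes fixed by name. Of those chosen, 1 gene of a sex chromosome was left out and 1 other gene is not reported here. The 26 gene lists hold 1070 symbols, of which 990 were found in both tables by symbol or older symbol. Members and lists were chosen with earlier results of these data known. Alternatives were a pseudocount, another floor, other filters, the 4 h baseline, rescaling, removal of the length trend and other call rules. Python 3.11.15, numpy 2.4.6, pandas 2.3.3 and matplotlib 3.10.9 were used. Start sequences came from RefSeq, GRCh38.p14.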

Additional observations from a re-analysis of the deposited data

Results flagged for a closer look

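Ribo-Seq signal rose at least 2-fold for 4 of the 176 transcripts outside the tested genes with at least 5 FPKM in either Ribo-Seq library. Among tested genes the share was 2.12%. The 4 were set aside because their RNA never reached 5 FPKM. In the control their Ribo-Seq level was also under 5 FPKM, so they were listed only through the 2 h library, which favours a rise. IL6, an inflammatory cytokine, was at 1.65 FPKM in the control Ribo-Seq library and 8.76 at 2 h, a density change of 2.41, while its RNA went from 0.899 to 4.37 FPKM. PWWP2B went from 1.956 to 5.79 FPKM (1.57), the Notch ligand DLL4 from 2.47 to 6.14 (1.31) and C7orf41 from 2.63 to 6.11 (1.21). Other transcripts of this set went the other way. Density was at least 2-fold lower for BHLHE22, C7orf68, FAM165B, GNG2, INE1, MRPL33, RP11-546D6.2 and ZNF354B. Among tested genes that share was 0.128%. BHLHE22, C7orf68, FAM165B, GNG2 and RP11-546D6.2 were under 5 FPKM at 2 h. They were listed only through the control library, which favours a fall.

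For 2 lists the median TE change relative to all genes had opposite signs at 2 and 4 h. Chaperones and unfolded-protein-response genes were at 0.21 at 2 h and -0.13 at 4 h. Actin and contractile genes were at -0.10 at 2 h and 0.15 at 4 h. Both times share the control libraries and the difference was not tested.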

How the results depend on the processing

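No paired analysis was possible because each group held 1 library, so leaving out a replicate was not possible either. Of 59 named genes called in TE, 376 of 382 values under 7 alternatives kept their sign. The exceptions were, with a floor of 5 FPKM, NR4A1 (-0.18) and SESN1 and TP53INP1 (both 0) and, with the 4 h libraries as baseline, SNRNP70 (-0.040), DUSP2 (-0.37) and MLLT3 (0.67). Without a filter on low values, 528 genes were called higher and 312 lower in TE, 181 lower in density and 94 lower in RNA, over 11258 transcripts. A filter at a mean level of 20 FPKM kept 2628 genes, of which 131 were called higher and 38 lower in TE. Against the 4 h libraries 240 genes were called lower in density and 207 lower in RNA, and 39 had at least 2-fold more density with flat RNA. A fixed 2-fold call gave 80 genes higher and 4 lower in TE. The main counts of lower calls were 180 in TE, 115 in density and 27 in RNA. Rescaling without ZNF354B and LGALS1 moved every TE change by -0.14, which turned the medians of 8 lists negative, among them cell-cycle genes. Relative to all genes, the medians of collagens, large matrix glycoproteins and giant cytoskeletal proteins ranged from 0.84 to 1.251 over all alternatives, and those of ribosomal proteins from -0.20 to -0.021, nearest to 0 with the length trend removed. Sources of error beyond counting could not be measured with 1 library per group.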

Other observations

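Replication-dependent histones, whose mRNAs lack a poly(A) tail and so are nearly absent from poly(A) RNA-Seq, carried ample Ribo-Seq signal. Of these, 36 transcripts with at least 5 FPKM in Ribo-Seq lay outside the tested genes, and all 36 were lower at 2 h than in the control, with a median density change of -0.38 and a range from -0.86 to -0.11. The other 140 transcripts outside the tested genes with at least 5 FPKM in either Ribo-Seq library had a median of -0.041. These were not matched for length, and the 498 tested genes with transcripts under 1000 nt had a median density change of -0.21. The part that length has in the histone values was not tested. H2B genes were lowest as a group, with a median of -0.60 over 13 genes, and H2A genes highest, with -0.19 over 8. HIST2H2BE went from 294 FPKM in the control to 163 at 2 h and 196 at 4 h, and HIST1H2AH from 1658 to 1541 and 1604. Histone genes are near copies of each other, so reads that several share were lost and single values are uncertain. Their RNA levels in poly(A) libraries do not give a TE, so only density is reported.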
